A study of Mus musculus with 2 samples.

Results

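Mir34a, Mir34b, Mir34c and Mir449a are microRNA (miRNA) genes whose mature products carry 1 common seed, the stretch near the 5′ end that pairs with target mRNAs. They were taken by name from the deposited counts of mouse embryonic facial prominence, the tissue that builds the face, palate and nose. All 4 were found, among 1973 annotated miRNA genes. The 2 libraries hold short RNA from the facial prominences of B6NCrl mouse embryos at day 13.5, males and females pooled, with no treatment or altered allele named. The labels call them biological replicates 1 and 2 of 1 group, so levels and their spread can be given but no contrast between conditions. Nothing in the labels says which embryos or litters went into each library. The p-values set the gap between the 2 libraries against counting error only, and that gap may be technical.

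Mir34 and Mir449 miRNAs are known for their role in multiciliated cells, the airway, ependymal and oviduct cells that carry many motile cilia. There they repress the ciliary brake Cp110 and components of the Notch pathway, and mice without the Mir34b/Mir34c and Mir449 loci have defects of motile cilia. Mir34a is also a direct target of p53 in many tissues, and Mir34b, Mir34c and Mir449 are abundant in male germ cells. In the mouse airway, multiciliated cells form late in gestation.

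The shared seed is what makes the genes 1 family. The mature 5p strands are shown from 5′ to 3′ with bases 2 to 8, the seed, in capitals (RefSeq, GRCm38.p6).
miR-34a-5p: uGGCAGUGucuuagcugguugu
miR-34b-5p: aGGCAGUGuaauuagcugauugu
miR-449a-5p: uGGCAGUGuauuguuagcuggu
miR-449c-5p: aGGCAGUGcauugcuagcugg
For the neighbours Mir34b and Mir34c the whole hairpins are set side by side, with the same 7 letters in capitals, because they had the highest and the lowest level of the 4 genes.
Mir34b: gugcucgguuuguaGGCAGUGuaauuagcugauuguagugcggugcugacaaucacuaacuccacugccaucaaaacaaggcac
Mir34c: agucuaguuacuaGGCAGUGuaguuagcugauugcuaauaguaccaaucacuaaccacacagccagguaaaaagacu

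The RefSeq table held hairpins for all 4 genes. Of its 1738 mature miRNAs, the 4 listed above were the ones with the seed GGCAGUG (0.230%); the 5p strand of Mir34c and Mir449b were not part of this count. The 3p strands of Mir34b and Mir34c share another seed, shown here in capitals.
miR-34b-3p: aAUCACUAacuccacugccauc
miR-34c-3p: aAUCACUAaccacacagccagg
Outside the seed the sequences differ. miR-34a-5p and miR-34b-5p are 4 single-base edits apart, and miR-34a-5p and miR-449a-5p are 6 apart. The longest identical run between the hairpins of Mir34b and Mir34c is 11 bases, and between those of Mir34a and Mir449a also 11. The hairpins of Mir34b and Mir34c are nevertheless closer, at 26 edits against 42 for Mir34a and Mir449a. As printed above, their run of 11 holds the seed. Only 1 differing base (a in Mir34b, g in Mir34c) parts it from another identical run of 11. The 5p strands of Mir34b and Mir34c thus differ at few bases. Each mature sequence of the 4 genes in the table lies in 1 of its 1005 hairpins only, which bears on counts of uniquely placed reads. The 5p strand of Mir34c was not part of this check, and other places in the genome were not searched.

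Mir34a lies alone on the plus strand of chromosome 4, at chr4:150068454-150068555 (GRCm38), and its last 17 bases overlap an exon of Gm37795, a transcript model of uncertain status on the same strand. Mir34b (chr9:51103562-51103645) and Mir34c (chr9:51103034-51103110) are neighbours on the minus strand of chromosome 9, with 451 bases between them, inside an intron of Btg4, which is read from the opposite strand. Mir449a (chr13:113037534-113037624) lies on the plus strand of chromosome 13 in an intron of Cdc20b, 35 bases after Mir449b, which itself follows Mir449c by 1327 bases. Upstream of Cdc20b, at 34716 and 44333 bases, end Mcidas and Ccno, which encode regulators of multiciliated cell formation. Messenger RNAs such as Cdc20b, Mcidas and Ccno were not measured in these libraries of RNA under 30 bases.

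All 4 genes were read in both libraries, and Mir34c was the highest. Levels are CPM, counts of the gene per 1000000 counts on miRNA genes of their own strand. Each read comes from 1 short RNA (the mature strands in the table have 21 to 23 bases), so no correction for length was made. How well each sequence enters a library was not measured, so ratios between genes compare reads and may differ from ratios of molecules. Mir34c stood at 551 CPM in replicate 1 (2515 counts) and 620.0 CPM in replicate 2 (3578 counts), a mean of 586 ± 48.6 CPM (SD, n = 2). Mir34a, the p53-linked gene, stood at 244 CPM (1111 counts) and 264 CPM (1525 counts), a mean of 254 ± 14.6 CPM. Mir449a, the Cdc20b gene, stood at 193 CPM (881 counts) and 242 CPM (1397 counts), a mean of 218 ± 34.6 CPM. Mir34b was far lower, at 16.9 CPM (77 counts) and 27.4 CPM (158 counts), a mean of 22.1 ± 7.42 CPM. Both libraries gave the same order, and replicate 2 had the higher CPM for each of the 4 genes. The 95% Wilson interval of Mir34b, 13.5 to 21.1 CPM in replicate 1 and 23.4 to 32.0 CPM in replicate 2, lay wholly above the limit of a count of 0. That limit, 3 counts, was 0.658 CPM in replicate 1 and 0.520 CPM in replicate 2. Intervals and limits cover counting error only, because PCR copies were not told apart by molecular identifiers.

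**Figure D1:**
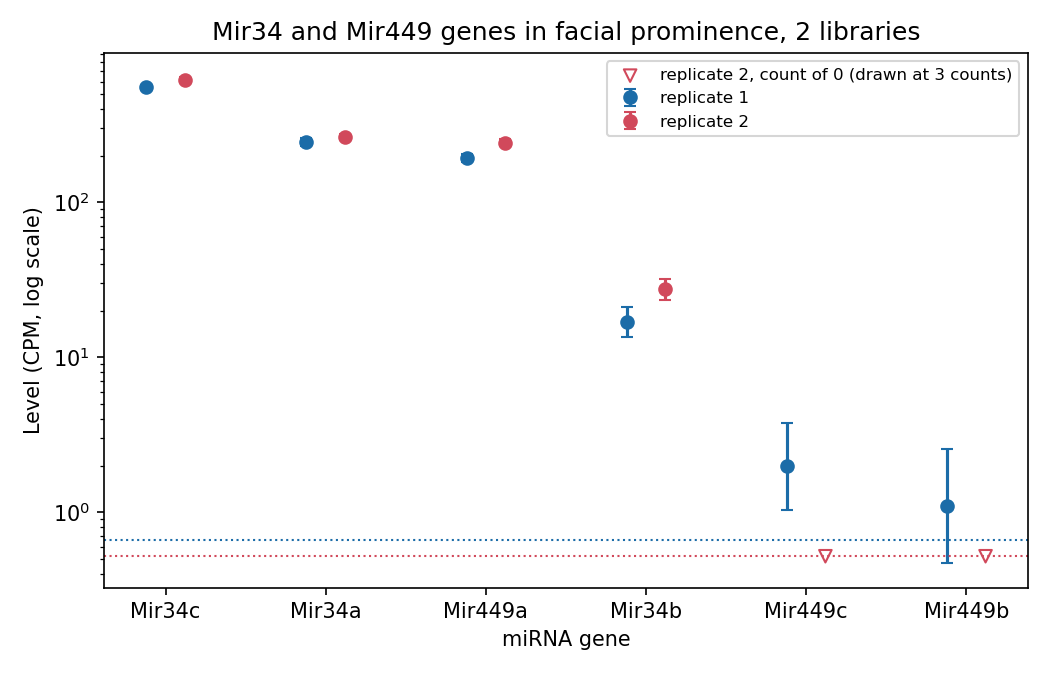
Level of each Mir34 and Mir449 gene in CPM (log axis) in replicate 1 (blue) and replicate 2 (red), with 95% Wilson intervals. Dotted lines mark 3 counts in each library, and open triangles mark counts of 0. Mir34c is highest, Mir34a and Mir449a lie close together, Mir34b stands at 16.9 and 27.4 CPM, and Mir449c and Mir449b have no count in replicate 2.

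In the order of levels, the step from Mir34c to Mir34a was 2.26-fold in replicate 1 (95% interval 2.11 to 2.43) and 2.35-fold in replicate 2 (2.21 to 2.49). Mir34a exceeded Mir449a by 1.26-fold (1.15 to 1.38) and 1.09-fold (1.02 to 1.17). The means of these 2 genes, 254 and 218 CPM, differ by about the SD of Mir449a. That SD is not the error of a difference measured within the same libraries. The order was the same in both libraries and neither interval reached equality, but the intervals cover counting error only. Whether the order holds beyond these 2 libraries was not tested. Mir449a exceeded Mir34b by 11.4-fold (9.07 to 14.4) and 8.84-fold (7.50 to 10.4). These steps are descriptions, since 2 libraries give no test between genes.

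Mir34b and Mir34c, which lie side by side on 1 strand, differed widely. Mir34c exceeded Mir34b by 32.7-fold (95% interval 26.0 to 41.0) in replicate 1 and by 22.6-fold (19.3 to 26.6) in replicate 2. Mir34c made up 54.3 ± 0.795% of the reads of the 4 genes (SD, n = 2) and Mir34b 2.03 ± 0.490%, with Mir34a at 23.6 ± 0.942% and Mir449a at 20.1 ± 1.25%. Mir34c thus outnumbered the other 3 genes together in each library.

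The Mir449 locus was read almost wholly as Mir449a. Mir449b and Mir449c, its neighbours in the Cdc20b gene, are not counted among the 4 genes but complete the locus. Mir449c had 9 counts in replicate 1 (1.97 CPM, 95% Wilson interval 1.04 to 3.75) and 0 in replicate 2. Mir449b had 5 counts in replicate 1 (1.10 CPM, 0.468 to 2.57) and 0 in replicate 2. The 2 zeros allow up to 0.520 CPM each. The interval of Mir449c in replicate 1 lay above that limit, and the interval of Mir449b reached below it. Mir449a exceeded Mir449c by 97.9-fold (51.3 to 187) and Mir449b by 176-fold (75.1 to 413) in replicate 1, and each of them by at least 466-fold in replicate 2. Mir449a was higher in replicate 2, whereas its 2 neighbours were seen in replicate 1 alone.

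Mir34c, Mir34a and Mir449a lay above the median level of the tested genes, and Mir34b lay below it. By mean level Mir34c ranked 109, Mir34a 140, Mir449a 150 and Mir34b 260 among the 360 genes with at least 10 counts in both libraries. Mir34c exceeded 69.7% of these genes and Mir34b 27.8%. All 4 held the same ranks among the 683 genes with a count in either library. The median of the 4 genes was 236 CPM, against 113 CPM over all 360. Together they held 0.100% of counts in replicate 1 (0.0976 to 0.103) and 0.115% in replicate 2 (0.113 to 0.118). The genes with the most similar values over the 2 libraries were Mir210, a miRNA of hypoxia, and Mir125b-2 for Mir34c, Mir145a and Mir376c for Mir34a, Mir32 and Mir185 for Mir449a, and Mir199a-1 and Mir466n for Mir34b. Likeness was the distance of log2 CPM over 2 libraries, from 0.0206 for Mir32 to 0.308 for Mir466n, which at this number of libraries describes level only. Reads of several loci were not counted, so Mir125b-2 and Mir199a-1, whose mature sequence occurs at a further locus, are undercounted.

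**Figure D2:**
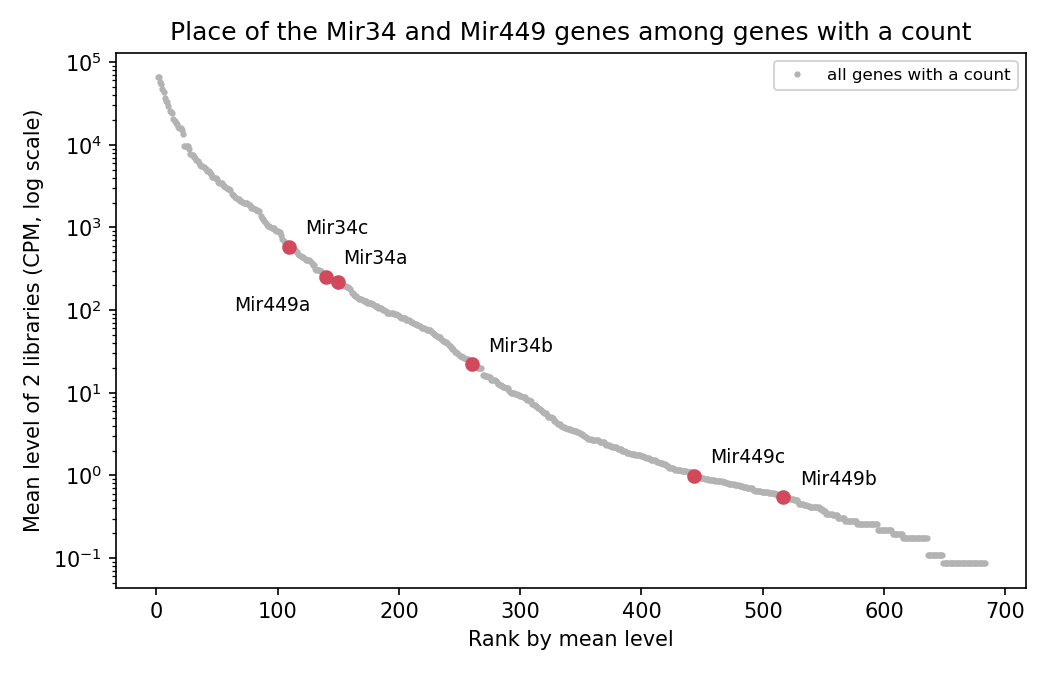
Mean CPM of 2 libraries (log axis) against rank for the 683 genes with a count (grey), with the Mir34 and Mir449 genes in red. Mir34c, Mir34a and Mir449a lie at ranks 109, 140 and 150, Mir34b at 260, and Mir449c and Mir449b at 443 and 515, where genes have a few counts.

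Between the libraries, 3 of the 4 genes were higher in replicate 2 by more than counting error, and Mir34a was not called. This is a comparison of 2 libraries, not of conditions, by a two-sided exact binomial test on TMM-scaled counts, adjusted by Benjamini-Hochberg over all 360 genes. Across all genes the test called 55.0% (27.8% as higher in replicate 2 and 27.2% as higher in replicate 1), so a call in one or the other direction is common here. The gap was widest for Mir34b, 1.62-fold higher in replicate 2 (95% exact interval 1.23 to 2.16; exact binomial test, adjusted p = 0.00114). Mir449a was 1.25-fold higher in replicate 2 (1.15 to 1.37; exact binomial test, adjusted p = 4.30e-07), and Mir34c 1.12-fold (1.07 to 1.18; exact binomial test, adjusted p = 1.98e-05). Mir34a stood at a ratio of 1.09 (1.00 to 1.17), with an exact binomial p of 0.0395 that became 0.0677 after adjustment. The median log2 ratio of replicate 2 to replicate 1 was 0.25 over the 4 genes and -0.01 over all 360. With a count of at least 1 in either library as the only condition, 683 genes entered the test. Of these 30.6% were called, 15.5% as higher in replicate 1 and 15.1% as higher in replicate 2. There Mir449c passed as higher in replicate 1 (exact binomial test, adjusted p = 0.00278) and Mir449b did not (exact binomial test, adjusted p = 0.0535). Both entered only through replicate 1, the library where they are higher, so these results rest on 9 and 5 counts in 1 library.

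**Figure D3:**
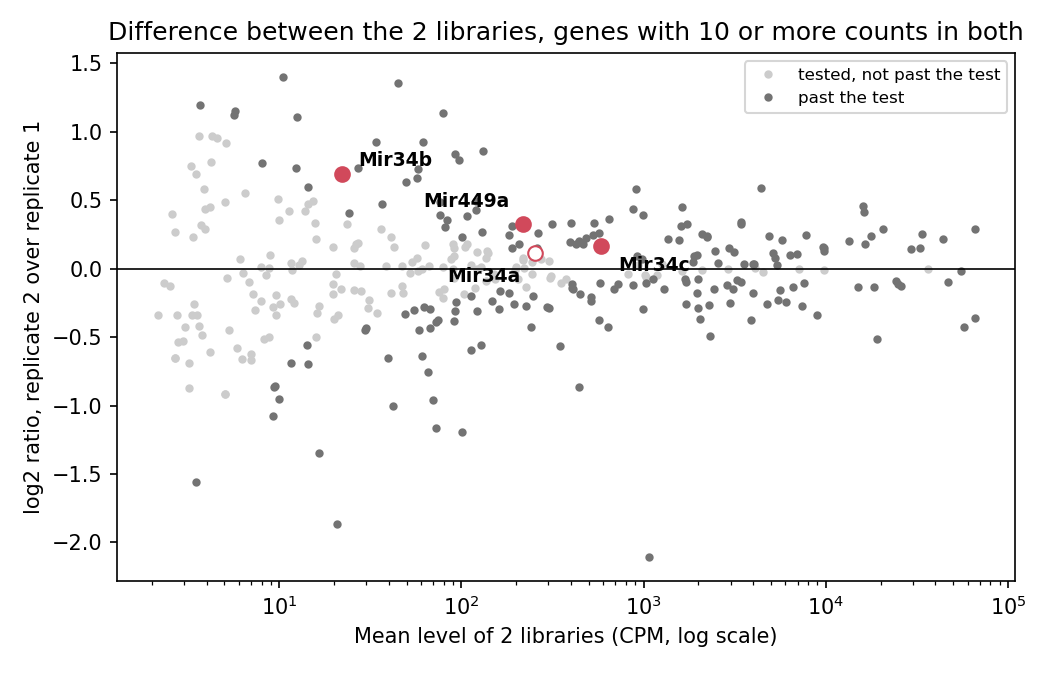
Log2 ratio of replicate 2 over replicate 1 against mean CPM (log axis) for the 360 genes with at least 10 counts in both libraries; dark grey points passed the exact binomial test and light grey ones did not. The 4 genes (red; open for Mir34a, which was not called) all lie above 0, between 0.12 and 0.69.

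Marker miRNAs of other cells differed between the libraries too. Over all 360 tested genes, 27.8% were called as higher in replicate 2 and 27.2% as higher in replicate 1. Genes with many counts are called at smaller differences, so calls in these lists also depend on depth. Of 7 epithelial genes, 5 were higher in replicate 2 and 2 in replicate 1. The log2 ratios were 0.58 for Mir200a and 0.59 for Mir200b, of the family that maintains epithelium, and -0.51 for Mir203, of stratifying epidermis. All 3 genes of the sensory epithelium cluster were higher in replicate 2, by log2 ratios from 0.13 for Mir183 to 0.33 for Mir96. Mir204, known from choroid plexus and the eye, had 93.4 and 170 CPM in replicates 1 and 2 (log2 ratio 0.86), whereas Mir211, of pigment cells, had 54.6 and 43.5 CPM. Of 6 tested neural genes, 1 was higher in replicate 2, 2 were higher in replicate 1 and 3 did not pass. The epithelial list held 63539 and 63309 CPM in replicates 1 and 2, the choroid plexus, eye and pigment list 148 and 213 CPM, and the neural list 746 and 683 CPM. The part of epithelium, choroid plexus, eye or neural tissue in the difference of the 4 genes was not tested.

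The multiciliated genes were low beside the epithelial and sensory genes. The 5 markers of multiciliated cells (Mir34b, Mir34c, Mir449a, Mir449b and Mir449c) summed to 764 CPM in replicate 1 and 889 CPM in replicate 2, most of it Mir34c. All 5 had a count in replicate 1, and 3 of 5 in replicate 2, where Mir449b and Mir449c were at 0. Another set, the 4 genes Mir34a, Mir34b, Mir34c and Mir449a, summed to more, 1005 and 1154 CPM. The epithelial list, of 7 genes, was 63.2 times that sum of 4 genes in replicate 1 and 54.9 times in replicate 2. It was led by Mir203 at 19190 ± 4787 CPM (SD, n = 2). The sensory list was 21.4 and 21.0 times that sum, led by Mir183 at 9775 ± 635 CPM. The neural list, at 746 and 683 CPM, was below the 5 multiciliated markers in each library. Among the neural genes, many of which share a mature sequence with another locus and so lose reads, Mir137 led at 310 ± 8.26 CPM. Mir124a-1, Mir124a-3 and Mir9-2 had 0 counts, Mir124a-2 had 1 in each library, and Mir9-3 had 39 and 31. Mir9-1 was not among the annotated genes. Because reads with several places were not counted, these zeros do not show absence. Of 12 genes of the X-linked cluster of male germ cells, 8 had no count in either library, and Mir741 led with 8 and 12 counts (1.75 and 2.08 CPM). That list summed to 1.75 and 2.77 CPM in replicates 1 and 2. The tissue was facial prominence and not gonad, so low values of this list were given by the dissection. Which cells the Mir34 and Mir449 reads come from was not tested.

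**Figure D4:**
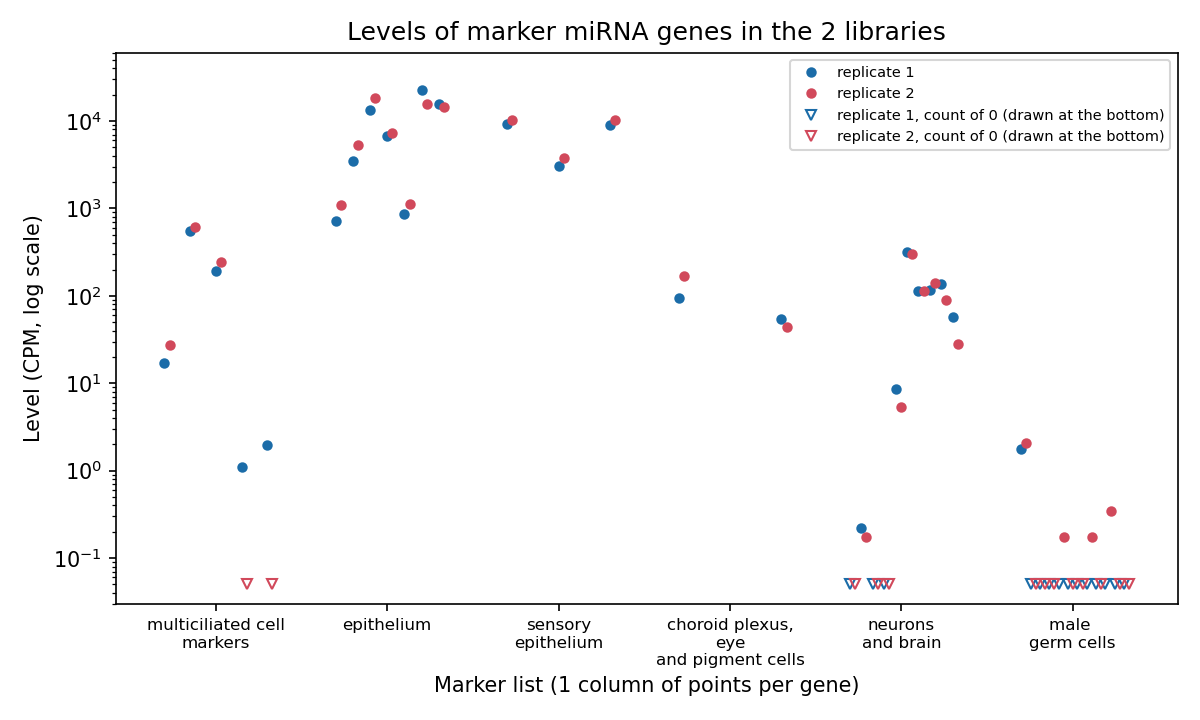
CPM (log axis) of each gene of 6 marker lists in replicate 1 (blue) and replicate 2 (red); triangles at the bottom are counts of 0. The multiciliated genes span from 0 counts to 620.0 CPM, below every sensory gene and every epithelial gene. Mir34b, Mir34c and Mir449a lie above the male germ cell list, which reaches 2.08 CPM, and Mir449b and Mir449c lie within its range.

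For ciliated nasal epithelium at day 13.5, the values show that Mir34c, Mir34a and Mir449a were present in whole facial tissue at means of 218 to 586 CPM and Mir34b at 22.1 CPM, while Mir449b and Mir449c were at or near the limit of detection. They do not say in which cells. In bulk tissue, fewer cells of a type and less RNA per cell cannot be told apart, and no mRNA of ciliated cells was measured. Mir34a is expressed in many cell types, so its level carries little about ciliated cells on its own. Mir34b, Mir34c and Mir449 are not confined to ciliated cells either, being abundant in male germ cells.

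Mir34a, Mir34b and Mir34c also belong to a list of 14 miRNA genes linked to p53, the stress-responsive transcription factor. The list held 3.34 ± 0.289% of counts (SD, n = 2), and its median was 422 CPM. It was led by Mir143, which p53 helps to process, at 17775 ± 2059 CPM. Mir34a was close to Mir145a, the neighbour of Mir143, at 245 and 272 CPM in replicates 1 and 2. Mir192 stood at 84.4 and 95.5 CPM, and Mir215, its close relative, at 1.97 and 5.20 CPM. Of 12 tested genes of the list, 8 were higher in replicate 2 (27.8% of all 360 genes were), 1, Mir15a, was higher in replicate 1 (27.2% of all), and 3 did not pass. Mir34a therefore lay in the lower part of the list, below Mir107 (1830 and 1955 CPM), Mir200c (6727 and 7258 CPM) and Mir16-1 (1430 and 1771 CPM, undercounted because a further locus has its mature sequence).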

How the data were processed

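Whole-number read counts per miRNA gene were deposited for each library in 3 columns (without regard to strand, on the strand of the gene, on the opposite strand), on mm10 and GENCODE release M4, as the description files state. The files have no header, so the columns were read from their layout: the first equalled the sum of the others, with 0 exceptions. The aligner is not given in the sources used here. Multiply placed reads, that is reads with several places in the genome, 30.7% and 31.0% of all reads, stand in a class of their own and entered no total.

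Same-strand counts were used, 4562135 in replicate 1 and 5771249 in replicate 2. Names and positions came from GENCODE release M21 (GRCm38), which matched 1894 of 1973 identifiers. The libraries were not duplicates (chi-square 79766 on 359 degrees of freedom). TMM scaling was done with edgeR 4.0.16 in R 4.3.3. Each gene with at least 10 counts in both was compared by an exact binomial test in scipy 1.17.1 conditional on its sum. Benjamini-Hochberg adjustment was made at 0.05. The test was also run on simulated counts with set changes and counting error only. That run does not cover further spread between libraries. Log2 values used a pseudocount of 0.5 reads. Alternatives were the unstranded counts, DESeq2 1.42.0 size factors, other totals, other count minimums and leaving out each library. Genes named beside the 4 were those with the same seed, the 2 nearest in level to each, and genes of the marker and p53 lists. The genes and lists were chosen with earlier results of these data known.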

Additional observations from a re-analysis of the deposited data

How the results depend on the processing

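Of 54 values recomputed under another setting, 53 stayed within the SD of the libraries, on their side of the threshold or within 1.5 times of a count. The exception was the level of Mir34a, which became 272 CPM when Mirlet7i, the most abundant gene, was left out of the total. All 4 genes rose in this setting because the total is then smaller, Mir34c to 626, Mir449a to 233 and Mir34b to 23.6 CPM. Only for Mir34a, with an SD of 14.6 CPM, was the rise larger than the SD of the libraries. Leaving out 1 library gave 244 to 264 CPM for Mir34a, 16.9 to 27.4 for Mir34b, 551 to 620.0 for Mir34c and 193 to 242 for Mir449a. With n = 2 each library always lies within the SD of the mean, so for levels and shares this setting could not give an exception. In each of the settings run, Mir34a missed the threshold of the exact binomial test (adjusted p from 0.0511 with DESeq2 size factors to 0.107 without a count minimum), and the calls of Mir34c and Mir449a held. The call of Mir34b held in 4 settings and could not be made with a minimum of 100 counts, which Mir34b does not reach in replicate 1. The total number of calls lay between 180 and 209 (198 as reported). Low counts limit Mir449b and Mir449c most, with 5 and 9 counts in replicate 1 and 0 in replicate 2, the deeper library. The interval of Mir449b in replicate 1 reached below the 3 counts that a 0 allows in replicate 2, and that of Mir449c did not.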

Other observations

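The gap between Mir34c and Mir34b was wider than the median of neighbouring miRNA genes that both had enough counts. It was near the median once pairs with a low gene were added. Over 78 pairs of adjacent miRNA genes on 1 strand, at most 2 kb apart and both with at least 10 counts in each library, the median gap was 2.93 on the log2 scale. The gap between Mir34c and Mir34b was 4.76, with 22 pairs wider and 55 narrower. Without the pairs in which a gene shares its mature sequence with another locus in the RefSeq table, 61 were left, with a median of 2.79, and 14 were wider. When pairs with only 1 such gene were added, 116 in all, the median was 4.63 and 56 pairs were wider than Mir34c and Mir34b; a gene near 0 counts then leaves the gap to the pseudocount of 0.5 reads. In replicate 1, the gap between Mir449a and Mir449b, a gene with 5 counts, was 7.32, wider than in 88 of the 116 pairs. Gaps of the first kind are means over 2 libraries, and pairs of 1 cluster are not independent.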
